A study of Mus musculus with 3 samples.

Results

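The genes described here build ribosomes: they encode RNA polymerase I, which transcribes the ribosomal RNA genes in the nucleolus, the small nucleolar ribonucleoprotein (snoRNP) cores that modify the transcript, and the factors that fold, cut and assemble it into the small and large ribosomal subunits. The list of 51 genes was chosen by name, with earlier results of these data known. Each gene was read by the probe set annotated to it alone with the highest mean log2 signal over the 3 arrays. Of the 51 members, 50 were read, out of 18193 genes that had such a probe set. Mrto4, a large subunit assembly factor, had no probe set of its own. All 50 members read lay on every array above the floor of 54.0, a signal under which values were treated as background.

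The cells were mouse embryonic stem (ES) cells, pluripotent cells of the early embryo, engineered to overexpress Gata6, a transcription factor of the primitive endoderm, in response to an agent the labels call dex. RNA was hybridised to 3 arrays, the day 0 control and days 1 and 2 of Gata6 overexpression. The labels give no strain, clone, promoter or dose, and do not say whether the control cells carry the construct. With 1 array a day there are no replicates and no test between days, so every difference is also one between single cultures and arrays. Any effect of dex or of time in culture cannot be told apart from that of Gata6.

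Ribosome production begins when RNA polymerase I, helped by Ubtf and Rrn3, makes a long precursor RNA. Box C/D snoRNPs then add methyl groups and H/ACA snoRNPs convert uridines to pseudouridines, while a large processome cuts out the small subunit RNA and other factors mature the large one. Growing, rapidly dividing cells such as ES cells spend much of their transcription on this work, and MYC proteins are known activators of many of its genes. The array reads the messenger RNAs of these factors and not ribosome production itself.

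Nearly the whole group was dimmer on the days of Gata6 overexpression than on day 0, by a modest amount. On day 2, 49 of the 50 members were lower than on day 0 at any size of difference, whereas 53.3% of all 13865 genes measured were lower. The median log2 difference of the members was -0.57, which is 1.49-fold lower, against -0.05 for all genes measured. Rrp1b, Polr1a, Utp14a, Polr1e and Noc3l, 5 members or 10%, were at least 2-fold lower, close to the 10.1% of all genes. None was at least 2-fold higher, against 11% of all genes. At the lesser threshold of 1.5-fold, 24 members were lower, or 48%, against 21.9% of all genes. At 3-fold, 0 members were lower, against 3.89% of all genes. The share of members past 2-fold was thus near the background, while the share lower at any size was far above it. As the list was chosen with earlier results of these data known, these shares are a description and no independent support.

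On day 1 the same direction was present at a smaller size. Of 50 members, 48 were lower than on day 0, against 54% of all 13602 genes measured, and the median was -0.19 against -0.04 for all genes. None was at least 2-fold lower or higher, against 6.58% and 6% of all genes. At 1.5-fold 1 member, Utp14a, was lower on day 1, against 15.9% of all genes. Between day 1 and day 2, 49 of 50 were lower on day 2, against 50.6% of all genes, with a median of -0.34 against -0.01. In that comparison 0 were at least 2-fold lower, against 3.67% of all genes, 0 at least 2-fold higher, against 5.61%, and 7 at least 1.5-fold lower, against 12.1%. With other scalings to control probe sets 39 to 43 members were lower between day 1 and day 2. The 3 comparisons share arrays in pairs, so they are not independent of each other.

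Members gave bright signals, with a median over the members of 2907 against 352 for all genes measured, so genes of mean signal 1000 or more were taken as a second background. In these 4104 genes the medians were -0.02 on day 1 and -0.12 on day 2. Of the bright genes 52% were lower on day 1, 58.1% on day 2 and 60.5% between the days. Those at least 2-fold lower made up 2.51%, 7.12% and 2.07% of the bright genes in the same order, and those at least 2-fold higher 4.65%, 9.02% and 2.27%. At 1.5-fold, 7.36%, 19.3% and 9.09% of them were lower, and at 3-fold 2.34% on day 2. Members with signals of 1000 to 5000, 34 in all, had a day 2 median of -0.57 against -0.09 for all genes of that brightness, and the 14 brighter ones had -0.45 against -0.19.

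Pairs of probe sets for the same gene gave the measurement error of 1 log2 difference, an SD of 0.39 for signals of 200 to 1000, 0.25 from 1000 to 5000 and 0.16 over 5000. It holds no spread between cultures. On day 2, 33 of 50 members were lower than on day 0 by over 2 such SDs, against 17.7% of all genes and 27.1% of the bright ones, and 0 were higher, against 16% and 20.5%. On day 1, 7 were lower by this measure, or 14%, against 10.5% and 11.6%, and 0 were higher, against 9.95% and 14.3%. From day 1 to day 2, 19 were lower, against 9.16% and 16.3%, and 0 higher, against 9.82% and 11.6%. Most single day 1 differences thus lay within 2 error SDs. The bulk signal does not tell fewer cells with these transcripts from less of them in each cell. Because each array was scaled to the same total, a change in total RNA per cell would not be seen either.

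**Figure D1:**
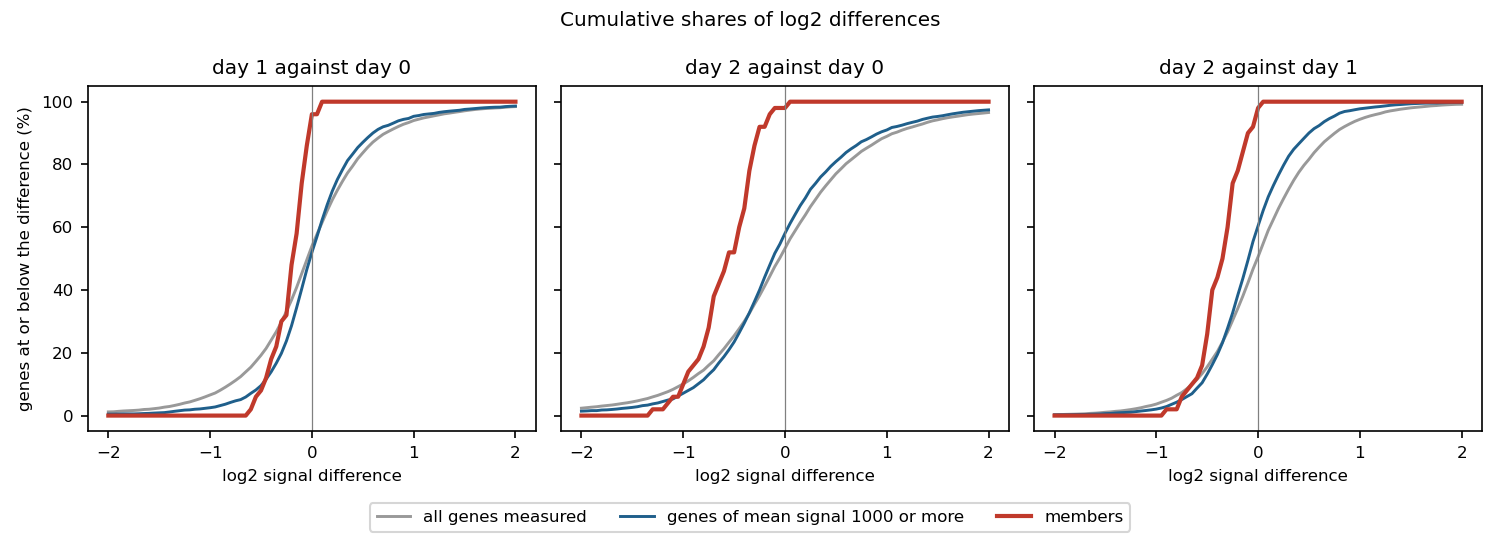
Cumulative share of genes (percent) at or below each log2 signal difference, for the 50 members (red), genes of mean signal 1000 or more (blue) and all genes measured (grey), in the 3 comparisons. The red curve reaches nearly 100% at a difference of 0, where the others stand at 50.6% to 60.5%, and its lowest values lie inside the range of the other curves.

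Marker genes were read beside these values. Gata6 read 110 on day 0, 5574 on day 1 and 6070 on day 2. Of 10 primitive endoderm markers, 4 were at the floor on day 0, 0 on the other days, and their summed signal was 4877, 91678 and 142832. Of 10 ES cell markers, all were lower on both days, 9 of them at least 2-fold, with Pou5f1 at 4051, 1493 and 828 and Nanog at 14631, 3442 and 1841. Their summed signal was 130817, 56208 and 47684, of which Dppa5a, lower by less than 2-fold, made up 40759, 37051 and 36734. The median log2 difference of the 10 markers was -2.17 on day 1 and -3.27 on day 2. Of 10 fibroblast markers, for feeder cells that such cultures can hold, 8, 7 and 8 were at the floor, among them Col1a1, Col3a1 and Postn on every day, and the highest was Thy1 at 421 on day 0. Their summed signal was 938, 610 and 627, of which 54.0 per gene is the floor itself. The part of any of these changes in the members' difference was not tested.

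RNA polymerase I and its factors had the lowest median of the 7 roles on day 2, at -0.82 (day 1: -0.33). All 6 were lower on day 1, against 54% of all genes. From day 1 to day 2 all 6 were lower again, against 50.6%. Polr1a, the largest subunit and part of the catalytic centre, read 2007, 1512 and 893 on day 0, 1 and 2. The day 2 signal was 2.25-fold lower than on day 0, a log2 difference of -1.17 (error SD 0.25), and -0.54 as a mean over all its probe sets, of which 2 are at the floor. Polr1e, a subunit of the peripheral pair that helps initiation and elongation, read 926, 863 and 453, which is 2.04-fold lower on day 2 (log2 difference -1.03, error SD 0.39). For Polr1e nearly the whole difference lay between day 1 and day 2, at -0.93 on the log2 scale, while day 1 stood at -0.10 from day 0.

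The other polymerase members were between 1.66-fold and 1.83-fold lower on day 2. Polr1b, the second-largest subunit, read 1890, 1582 and 1138. Polr1c, a subunit that RNA polymerase III also uses, read 7891, 7129 and 4717. Ubtf, the factor that coats active ribosomal RNA genes, read 3223, 2333 and 1884. Rrn3, which recruits the polymerase to its promoter and relays growth signals, read 2449, 1648 and 1339. Ubtf and Rrn3 differed on the first day already, with log2 differences of -0.47 and -0.57, and less on the day after, with -0.31 and -0.30. Polr1b and Polr1c had -0.26 and -0.15 on day 1 and a further -0.48 and -0.60 from day 1 to day 2.

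**Figure D2:**
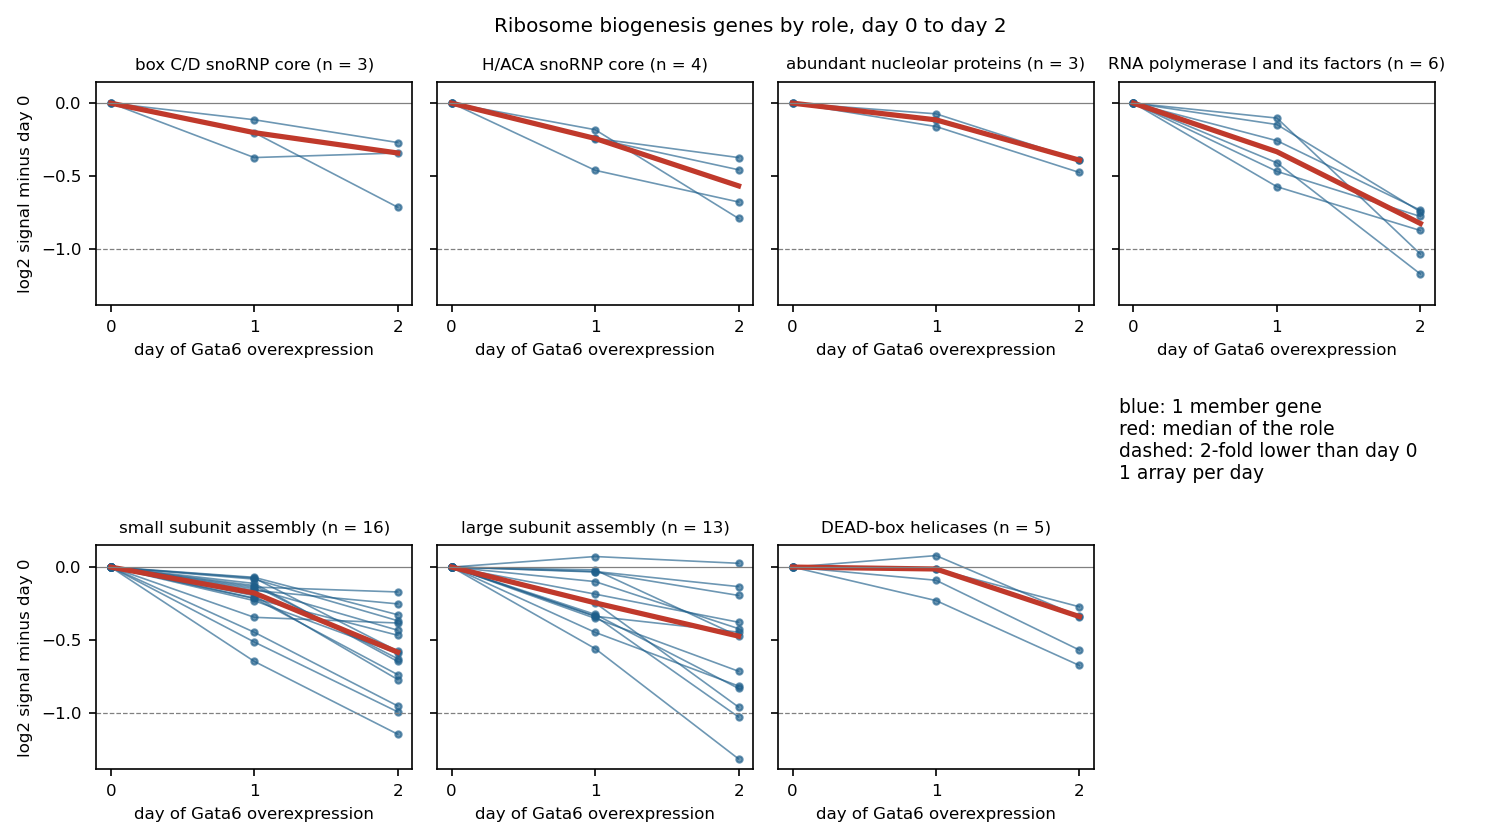
Log2 signal of each member minus its day 0 value (blue lines, 1 array per day) at days 0, 1 and 2, by role, with the median of the role in red and 2-fold lower as a dashed line. All 6 polymerase genes end between -0.73 and -1.17, whereas the 13 large subunit genes spread from 0.03 to -1.31.

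The snoRNP cores were lower too. Of the box C/D proteins, Nop56 read 10490, 9121 and 6405, a log2 difference of -0.71 on day 2 (error SD 0.16). Its partner Nop58, which sits beside it in the same particle, read 6523, 5040 and 5150. The methyltransferase of the particle, fibrillarin (Fbl), read 14386, 13297 and 11936, a difference of -0.27. Nop58 was the only member of the 50 whose day 2 signal was not below day 1, by 0.03 on the log2 scale, which is within the measurement error. On the picked probe sets the 3 proteins of this particle spanned -0.27 to -0.71 on day 2. A further, nearly as bright Fbl probe set read 12085, 10744 and 8950, at -0.43 on day 2, and a further Nop56 probe set had -0.78.

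All 4 proteins of the H/ACA particle, which also forms part of telomerase, were lower on both days, with a day 2 median of -0.57. Of all genes, 54% were lower on day 1 and 53.3% on day 2. The pseudouridine synthase dyskerin (Dkc1) read 7799, 6876 and 4514, which is 1.73-fold lower on day 2. Nhp2 read 21604, 15716 and 13523, with more of its difference on the first day (-0.46) than on the following one (-0.22). Gar1 read 5644, 4770 and 4115, and Nop10 read 14143, 11972 and 10928, with day 2 differences of -0.46 and -0.37. The order of the signals by day was the same in all 4, day 0 highest and day 2 lowest.

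The abundant nucleolar proteins differed little in fold. Npm1 (nucleophosmin), a histone and ribosome chaperone, read 38656, 35710 and 29538. Ncl (nucleolin), an RNA-binding protein of the nucleolus, read 28603, 25604 and 20590. Their day 2 log2 differences were -0.39 and -0.47, and Nolc1, a chaperone of the snoRNPs, had -0.39 as well. On day 1 the 3 genes stood at -0.11, -0.16 and -0.07, none of them beyond 2 error SDs. Npm1 and Ncl gave the brightest signals of the group, and whether saturation compressed them was not tested. Across the 50 members the log2 difference of day 2 against day 0 had a Pearson r of 0.26 and a Spearman rho of 0.20 with mean log2 signal, a weak relation, given as a description.

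The 16 small subunit assembly factors were all lower on day 1 and on day 2, against 54% and 53.3% of all genes. Their medians were -0.18 and -0.58. Some day 1 differences lay within the error SD of 0.25, such as -0.07 for Imp3 and Ltv1 and -0.08 for Nat10. Utp14a, a processome protein that activates an RNA helicase, read 3994, 2555 and 1809 and was 2.21-fold lower on day 2 (log2 difference -1.14, error SD 0.25). It had the lowest day 1 difference of the 50 members, at -0.64. Heatr1, a scaffold protein of the early processome, was just short of 2-fold, at 4803, 3367 and 2418 (log2 difference -0.99). The other, dimmer Heatr1 probe sets gave -0.81 and -0.54. Nob1, the nuclease that makes the last cut of the small subunit RNA, had -0.95. On day 1 these 3 genes already stood at -0.64, -0.51 and -0.45.

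At the other end of this role were Imp4 and Nop14. Imp4, which binds the U3 snoRNA with Imp3 and Mphosph10, read 3014, 2741 and 2678, with log2 differences of -0.14 and -0.17 that lie within the error SD of 0.25. Its partner Imp3 had -0.33 and Mphosph10 had -0.65 on day 2, so the 3 proteins of this complex spanned a wide part of the role's range. Nop14 read 2786, 2494 and 2340, at -0.25 on day 2. Nat10, an RNA acetyltransferase, read 1725, 1629 and 1338, at -0.37. The other 8 genes of the role lay between Utp20 (-0.38) and Bysl (-0.77) on day 2. They include the U3 snoRNP protein Rrp9 at -0.74, the late export and maturation factors Ltv1 at -0.57 and Tsr1 at -0.59, and the early processome proteins Wdr75 at -0.63, Noc4l at -0.47 and Wdr43 at -0.43.

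Large subunit assembly factors had the widest spread, with a median of -0.24 on day 1 and -0.47 on day 2. Rrp1b, a nucleolar protein that binds phosphatase 1 and chromatin, had the lowest difference of all members. It read 3652, 2482 and 1471, which is 2.48-fold lower on day 2 (log2 difference -1.31, error SD 0.25), and its other probe sets gave -1.13 and -1.34. Noc3l, which accompanies the early large subunit particle with Noc2l, read 1143, 906 and 561, which is 2.04-fold lower (log2 difference -1.03, error SD 0.39). The other, dimmer Noc3l probe set read 427, 218 and 121, at -1.82 on day 2. Noc2l itself read 1832, 1790 and 1602, at -0.19 on day 2, within the error SD.

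Nop16 was the only member not below day 0 on day 2. It read 2355, 2476 and 2398, with log2 differences of 0.07 and 0.03, both inside the error SD of 0.25. Its other probe set, far dimmer at 86.5, 101 and 58.3, had -0.57 on day 2. Gnl2, a nucleolar GTPase, read 1741, 1705 and 1587, at -0.13. The related GTPase nucleostemin (Gnl3), known from stem cells, had -0.18 on day 1 and -0.38 on day 2.

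Bop1, Pes1 and Wdr12 form 1 complex needed to process the large subunit RNA. On day 2 their log2 differences were -0.71, -0.96 and -0.47, and on day 1 they were -0.35, -0.24 and -0.02. The RNA methyltransferase Nop2 had -0.45 and -0.81, and Ebna1bp2 had -0.32 and -0.83. Rrs1 had -0.34 and -0.45, and Nip7 had -0.10 and -0.42. Every one of these was lower on both days on the brightest probe set, against 54% and 53.3% of all genes. With the mean over all probe sets of the gene, day 2 differences were -0.14 for Bop1, -0.45 for Pes1, -0.05 for Wdr12 and -0.04 for Ebna1bp2. The further probe sets of these 4 genes all had signals under 1000. By the brightest probe set, Wdr12 on day 1 lay well within the error SD of 0.25. Mrto4, left out of all counts, was covered only by a probe set shared with 2 of its pseudogenes, which read 4677, 5193 and 3165.

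The 5 DEAD-box helicases, enzymes that unwind RNA during assembly, had medians of -0.34 on day 2 and -0.01 on day 1. Ddx18 stood at 0.08 above day 0 on day 1 and at -0.34 on day 2. Ddx21, which is known to work with both RNA polymerase I and snoRNAs, stood at -0.01 and -0.27, and Ddx56 at -0.01 and -0.34. Ddx10 (-0.57) and Ddx27 (-0.67) had the lowest day 2 values of this role and were its only genes beyond 2 error SDs. On day 1 Ddx27 stood at -0.23. Only Nop16 and Ddx18 among the 50 members were above day 0 on day 1, both within the error SD.

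**Figure D3:**
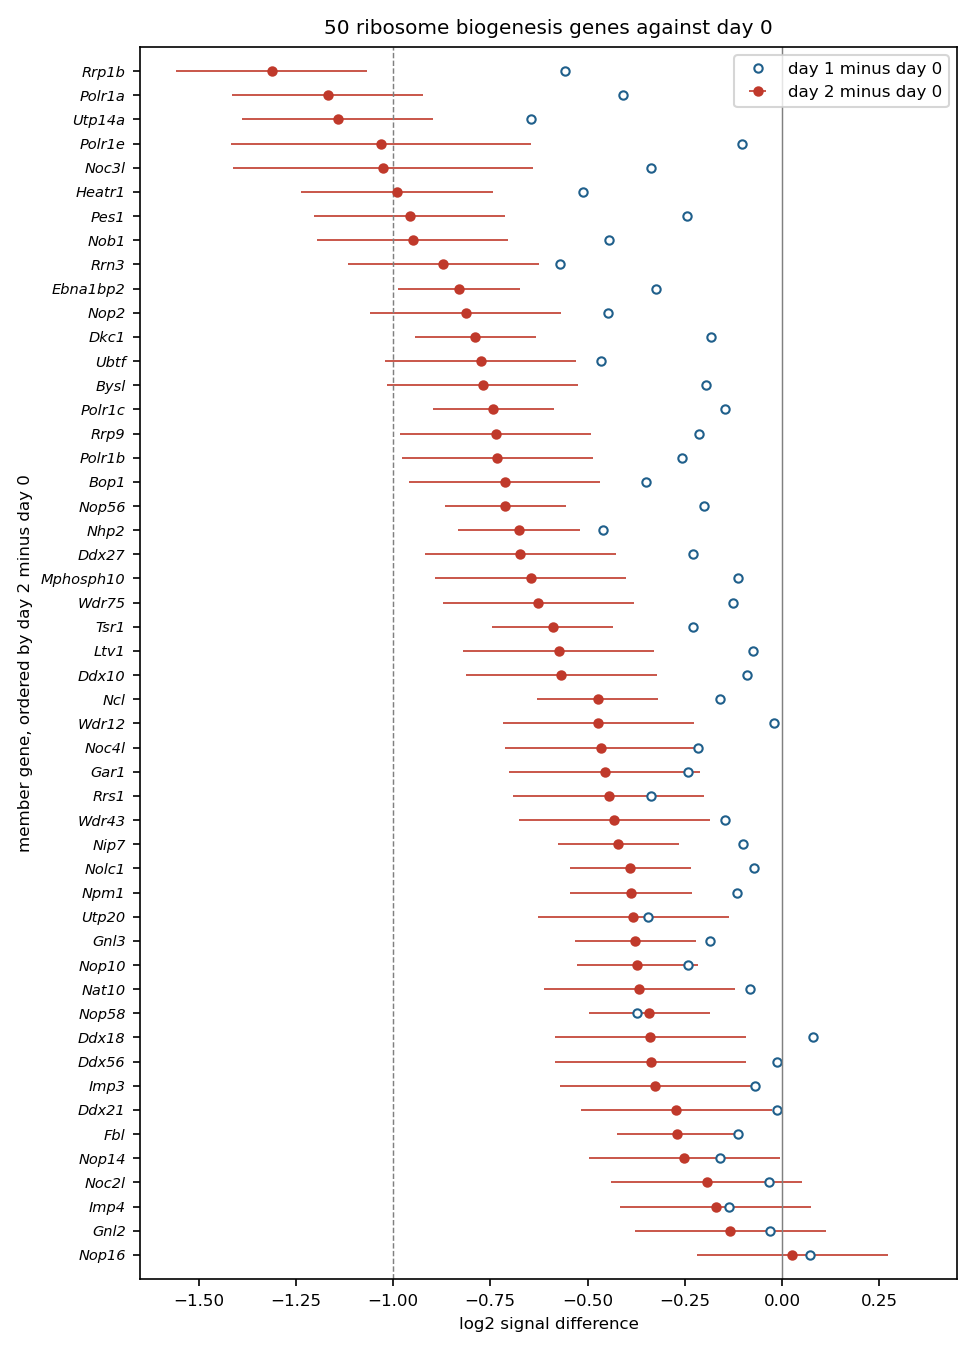
The 50 members ordered by log2 signal difference of day 2 against day 0 (red dots, bars of 1 measurement error SD), with day 1 against day 0 as open blue circles. Differences on day 2 run from -1.31 (Rrp1b) to 0.03 (Nop16), 5 lie beyond the dashed 2-fold line, and most day 1 circles lie between -0.64 and 0.

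Probe sets that the selection had passed over gave a second reading of the same RNA samples. Of 48 such probe sets above the floor on day 0 and day 2, from 36 members, 42 were lower on day 2, with a median of -0.56. Among the 27 with a mean signal of 1000 or more, 27 were lower, from -0.18 (Nolc1) to -1.34 (Rrp1b), whereas 55.1% of 1973 equally bright probe sets passed over in bright genes were lower. On day 1, 25 of these 27 were lower, with a median of -0.22 against 0.00 for the 1973. The 6 probe sets that were higher on day 2 belonged to Ebna1bp2, Bop1, Wdr12, Gnl2, Noc2l and Pes1, all had signals under 1000, and their differences were 0.72, 0.43, 0.31, 0.25, 0.19 and 0.05.

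**Figure D4:**
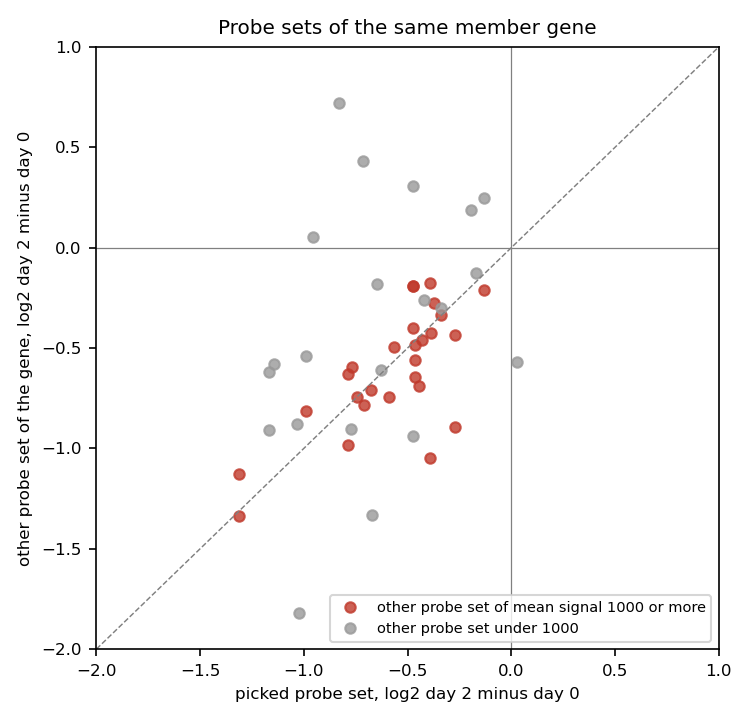
For 48 passed-over probe sets of 36 members, the log2 difference of day 2 against day 0 (y axis) is set against that of the picked probe set of the same gene (x axis), with equality dashed. All 27 bright probe sets (red) lie below 0 on the y axis, and the 6 above 0 are dim ones (grey).

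Agreement between probe sets differed between genes. Polr1a had further readings of -0.62 and -0.91 against -1.17 for the picked one, and 2 more probe sets at the floor on every array. Polr1c (-0.74 and -0.74), Polr1e (-1.03 and -0.88) and Ubtf (-0.77 and -0.90) had close pairs. Ddx21 had -0.27 and -0.89, and Nolc1 had -0.39, -1.05 and -0.18, a spread wider than the error SD. The picked Polr1e probe set has a suffix that marks possible binding to other transcripts, and the specific one of the pair was short of 2-fold.

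The rest of the pathway was read through 9 further lists of genes and 1 comparison list. Of 11 other RNA polymerase I genes, 2 were at least 2-fold lower on day 2 (10.1% of all genes) and 0 higher (11%). The medians were -0.48 on day 2 and -0.24 on day 1. Cd3eap, the partner subunit of Polr1e, read 419, 245 and 158, while Polr1d, a small subunit shared with RNA polymerase III, read 8966, 9416 and 9339. Taf1c, of the promoter selectivity factor, stood at -0.12. Cavin1, listed for its role in releasing the transcript but better known as a caveola coat protein, read 185 and 71.5 and lay at the floor on day 2, which makes it at least 3.43-fold lower than on day 0.

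The wider assembly lists were mostly lower on day 2 as well, with more exceptions in the large subunit list. Of 40 other small subunit processome genes, 37 were lower on day 2, against 53.3% of all genes, with a median of -0.52. In this list 0 were 2-fold higher, against 11% of all genes, and 4 were at least 2-fold lower. As for the members, this count past 2-fold is near the 10.1% of all genes, and the same holds for the large subunit list that follows. The lowest were Rrp12, which read 1228, 762 and 503, and Wdr46 (-1.06), and the highest were Rrp7a (0.29) and Utp23 (0.03). Of 39 other large subunit genes, 32 were lower, 3 at least 2-fold, and 0 were 2-fold higher, with a median of -0.51. The giant ATPase Mdn1 read 2474, 1909 and 1070, and the SUMO protease Senp3 read 10128, 6709 and 4781. Dhx33 (0.48) and Efl1 (0.35) were higher than day 0 by less than 2-fold, and a further Dhx33 probe set had 0.04. The RNA exosome, which trims precursor RNAs, had 13 of 14 genes lower, against 53.3% of all genes, with a median of -0.42. None of the 14 was past 2-fold, against 10.1% of all genes lower and 11% higher. Exosc9 (-0.89) and Exosc5 (-0.77) were its lowest genes, and Mphosph6 (-0.12) and C1d (0.36) its highest. A further, far dimmer C1d probe set read 233, 197 and 128, at -0.87 on day 2. On day 1 the medians of these 3 lists were -0.10, -0.17 and -0.03. Above day 0 lay 10 of 40, 11 of 39 and 6 of 14 genes, against 46% of all genes.

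The ribosomal proteins themselves had smaller differences on day 2. Of 22 small subunit and 23 large subunit proteins measured, 21 and 22 were lower on day 2, against 53.3% of all genes. Of the bright genes, 58.1% were lower. None of these proteins was past 2-fold, against 10.1% of all genes lower and 11% higher. The medians were -0.20 and -0.19, the latter also the median of all genes with signals over 5000. Rps28 read 43130, 37042 and 33530, and Rps29 read 43151, 41636 and 41361. These signals are higher than that of Npm1, and whether saturation compressed them was not tested. Among the lowest were Rpl12 (-0.76), Rpl22l1 (-0.74) and Rps25 (-0.32), and the highest were Rps6 (0.32), Rpl27a (0.06) and Rpl39 (-0.04). Of the 33 small and 48 large subunit proteins listed, 10 and 25 had no probe set of their own, many of these families having processed copies. Some were dim on the probe set read, with Rps6 at 683 and Rpl39 at 619 on day 0.

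RNA polymerase III, which makes transfer RNAs and the small ribosomal RNA that the nucleolus does not, did not share one direction. Among its 20 genes, 11 lay below day 0 and 9 above it on day 2, near the share of all genes below, 53.3%. The median was -0.17, and 1 was at least 2-fold lower. That 1 gene of 20 compares with 10.1% of all genes and was Gtf3a, the factor specific to that small ribosomal RNA, which read 3626, 1889 and 953, 3.81-fold lower. Gtf3c6 had -0.83, while Brf1 had 0.46 and Gtf3c4 had 0.72. Mitochondrial ribosomal proteins, which belong to ribosomes assembled outside the nucleolus, were taken for comparison. On day 2, 63 of 74 were lower, against 53.3% of all genes, with a median of -0.35. At least 2-fold lower were 4, under the 10.1% of all genes, and 0 were at least 2-fold higher, against 11%. Mrps31 (-1.17) and Mrpl32 (-1.08) were the lowest of them and Mrps18a (0.56) and Mrpl23 (0.55) the highest.

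**Figure D5:**
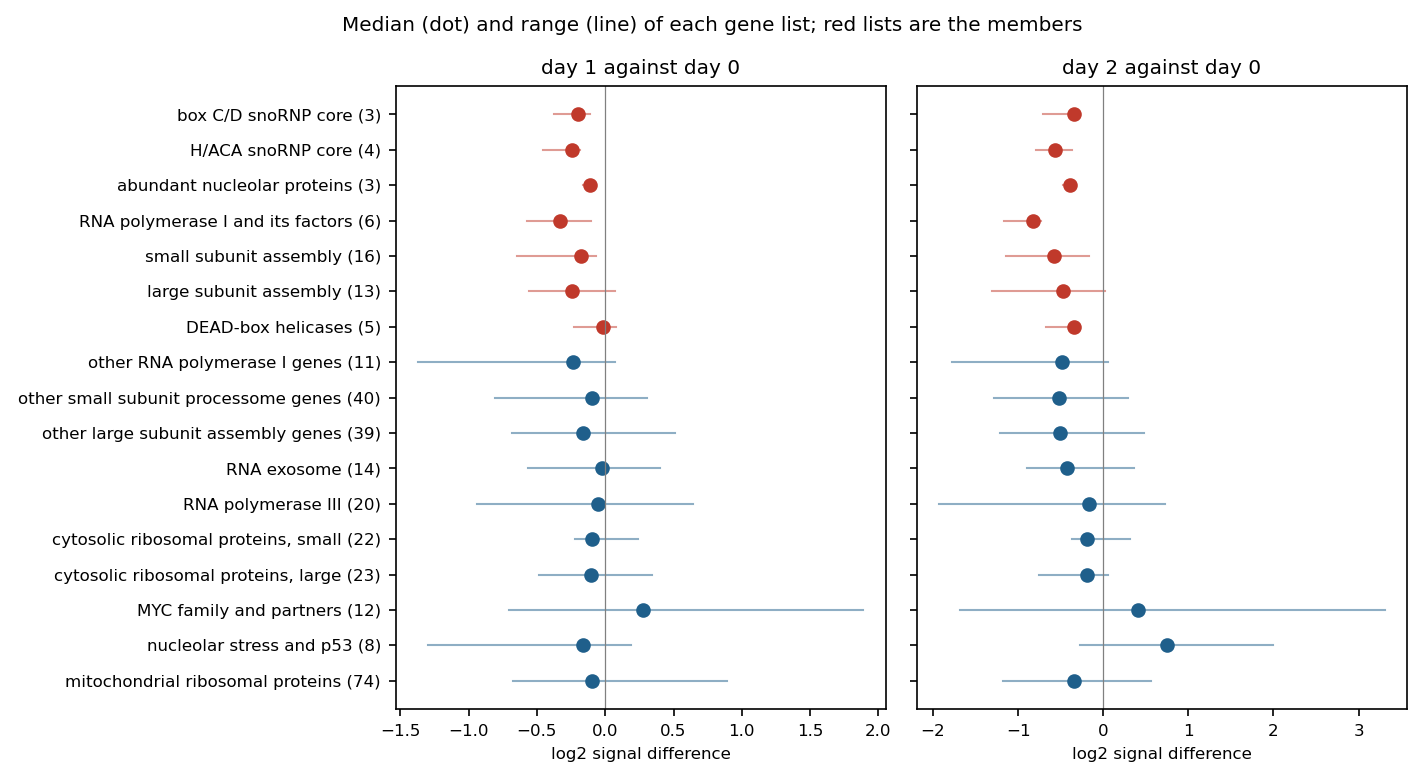
Median (dot) and range (line) of the log2 signal difference in each role of the members (red) and each pathway or comparison list (blue), with the number of genes in brackets, for day 1 and day 2 against day 0. The assembly lists lie near -0.5 on day 2, the cytosolic ribosomal proteins near -0.2, and the MYC and nucleolar stress lists above 0.

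The MYC family, transcription factors that bind the E-box CACGTG together with Max, did not share a direction. Myc read 1181, 724 and 368, which is 3.21-fold lower on day 2, and Mycn read 2976, 6151 and 8302, which is 2.79-fold higher. A further Mycn probe set gave 510, 968 and 1256, and another, dimmer one had 201, 65.3 and 101. Among 12 genes of this list 2 were at least 2-fold lower on day 2, Myc and Mga (-1.06), against 10.1% of all genes. At least 2-fold higher were 2, Mycn and Mxd4, against 11% of all genes. In a list of 12 genes such counts do not stand apart from these shares. Mxd4, a MYC antagonist, read the floor on day 0 and 534 on day 2, hence at least 9.89-fold more. Its other, dimmer probe sets had smaller log2 differences on day 2, of 1.18, 1.10 and 2.05. The partner Max read 383, 307 and 374.

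Genes of nucleolar stress and p53, many of which p53 switches on when ribosome assembly is disturbed or under other stresses, differed between the days. Of the 10 genes listed, Bax and Trp53, the gene of p53 itself, had no probe set of their own. On day 2 the median of the 8 measured was 0.75, and 3 were at least 2-fold higher and 0 lower, against 11% and 10.1% of all genes. On day 1 their median was -0.16, and the sole gene past 2-fold, Cdkn1a, was lower. The cell cycle inhibitor Cdkn1a read 494, 202 and 1978, the receptor Eda2r read 319, 303 and 856, and Mdm2, the ligase that degrades p53, read 1618, 1847 and 3320. Zmat3 (0.17) and Mdm4 (-0.27) were the genes nearest to or below day 0. Whether these differences bear on those of the members was not tested.

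Promoters of the members were searched for the E-box that MYC proteins bind. RefSeq windows (GRCm38.p6) from 250 bases before to 50 after the gene start were at hand for 46 of the 51 members. Of these, 8 held CACGTG, which reads the same on both strands, or 17.4%, against 14.1% of genes of mean signal 1000 or more and 8.09% of all 27025 genes in the table. The share in the members is near that of bright genes. The 8 genes with the motif had a median day 2 difference of -0.58 and the 37 members read without it -0.63. The sites before the start are shown here to let the letters be compared, 5′ to 3′, with the E-box in capitals.
Rrn3, 215 bases before the start, chr16:13780449-13780531, plus strand: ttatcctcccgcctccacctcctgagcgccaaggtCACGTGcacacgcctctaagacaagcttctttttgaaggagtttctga
Rrn3, 48 bases before the start, chr16:13780609-13780698, plus strand: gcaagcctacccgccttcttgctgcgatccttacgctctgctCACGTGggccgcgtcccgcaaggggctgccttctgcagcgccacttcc
Nop2, 60 bases before the start, chr6:125131781-125131870, plus strand: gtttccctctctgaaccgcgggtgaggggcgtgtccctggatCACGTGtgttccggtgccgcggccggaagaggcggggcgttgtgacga
Imp4, 121 bases before the start, chr1:34439666-34439755, plus strand: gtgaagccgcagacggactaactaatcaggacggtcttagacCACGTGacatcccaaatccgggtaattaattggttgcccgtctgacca

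These 3 genes covered much of the range of the members on day 2, with Rrn3 at -0.87, Nop2 at -0.81 and Imp4 at -0.17. In the other 5 genes, Pes1, Tsr1, Wdr43, Ltv1 and Utp20, the E-box lay after the start, from 3 to 38 bases into the transcript, as in the following stretch of Pes1, shown because its site is the nearest to the start.
Pes1, 3 bases after the start, chr11:3963965-3963994, plus strand: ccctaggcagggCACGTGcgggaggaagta

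The day 2 differences of these 5 genes ran from -0.38 in Utp20 to -0.96 in Pes1. The GATA motif AGATAA, searched on both strands, was in 0 of the 46 member windows, against 6.3% of bright genes and 12.7% of all genes. The motifs of NRF1 and of the ZBTB33 type, a palindrome around CGCG, were likewise in 0 of 46 on either strand, against 3.05% and 2.05% of bright genes. No match says only that these letters are not in these windows.

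The control probe sets for 18S ribosomal RNA, the small subunit RNA whose precursor these genes process, read 351, 450 and 370 at the 3' end, 350, 371 and 473 in the middle and 220, 216 and 230 at the 5' end on day 0, 1 and 2. Ribosomal RNA has no poly-A tail, from which this kind of labelling starts, so these probe sets are no measure of ribosome content. As a check on RNA quality, 3' over 5' signal was 1.25, 1.21 and 1.24 for Actb and 0.784, 0.766 and 0.765 for Gapdh.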

How the data were processed

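The authors deposited a table of intensity values on a linear scale, 1 value for each probe set and array. The submitters' processing notes name MAS5, without a version or a scaling target. It held 45101 probe sets, 64 of them controls, in 3 arrays. Of the others, 34945 were annotated to 1 gene, 932 to several and 9160 to none; 34741 of the 34945 matched a RefSeq gene table (GRCm38.p6, used for names) by gene identifier. Those with several genes were not used.

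Arrays were scaled to a common 2% trimmed mean, values under the 40th percentile (54.0) were set to that floor, and log2 was taken. A call needed a 2-fold or larger difference and a brighter array above the floor. Against an array at the floor a fold is a lower bound. There is no test: the error SD is the root mean square gap between the log2 differences of 2 probe sets of 1 gene, scaled to 1 probe set. The steps were tested on simulated data, with Python 3.11.15, numpy 2.4.6 and pandas 2.3.3. The number of arrays limits the precision.

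Members and lists were chosen with earlier results of these data known. Signals are given for members at least 2-fold apart in a comparison, the 5 highest and 5 lowest on day 2, the 5 brightest and 5 dimmest, and all polymerase and snoRNP members. The 2 highest and 2 lowest genes of each pathway list are named with log2 differences or signals; others were named after their values were seen.

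The alternatives tried were other floors, a pseudocount, other scalings, means over probe sets, specific probe sets only and other fold thresholds.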

Additional observations from a re-analysis of the deposited data

How the results depend on the processing

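No paired analysis was possible because each day has 1 array. With the 1.5-fold threshold the count of members lower was 1 on day 1, 24 on day 2 and 7 from day 1 to day 2, and with the 3-fold threshold it was 0 on day 2. The 5 members at least 2-fold lower on day 2 became 3 with means over probe sets, 3 with scaling to the hybridisation controls and 9 with scaling to the poly-A controls, and with median scaling 1 member was 2-fold lower from day 1 to day 2. The control scalings were chosen after seeing the data; they put the median of all genes on day 2 at 0.05 and -0.18 and on day 1 at -0.05 and -0.36. With the poly-A controls the day 1 median of the members was -0.54, and by role -0.55 (box C/D), -0.59 (H/ACA), -0.46 (nucleolar proteins), -0.68 (polymerase), -0.52 (small subunit), -0.59 (large subunit) and -0.36 (helicases). With means over probe sets the MYC list had a day 2 median of 0.14, Polr1a had -0.54, as probe sets at the floor entered its mean, Utp14a -0.86, Ebna1bp2 -0.04, Wdr12 -0.05, Bop1 -0.14, Pes1 -0.45 and Ddx21 -0.58, while Ddx27 was just past 2-fold lower. The cause of the other moves was not tested.

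Of 12 alternatives, 8 can move the members' median; the other floors and the fold thresholds cannot. Over those the median stayed below 0, from -0.71 to -0.45 on day 2 against day 0, from -0.54 to -0.15 on day 1 and from -0.42 to -0.14 from day 1 to day 2. Scaling all genes alike cannot move the gap to the median of bright genes; over the other alternatives that gap was -0.46 to -0.41, -0.17 to -0.15 and -0.26 to -0.21. At least 44 members were below day 0 on day 2 in each alternative, 44 of 45 with specific probe sets only. From day 1 to day 2 the number below ran from 39 with the poly-A controls and 43 with the hybridisation controls to 50, and on day 1 from 42 of 45 with specific probe sets only and 43 of 50 with median scaling to 50. Nop16 changed sign on day 2, between -0.27 and 0.14, and Polr1e ranged from -1.17 to -0.88 and Noc3l from -1.42 to -0.91, each short of 2-fold in some settings.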
